A study of Homo sapiens with 8 samples.

Results

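The genes of the TNF ligand and receptor superfamily were examined in HCT8 cells, a line from a human ileocecal colorectal adenocarcinoma, after exposure to bacterial membrane vesicles (MVs). Members were all protein-coding autosomal genes in the GENCODE annotation on GRCh37 whose symbol starts with TNFSF or TNFRSF, together with TNF, LTA, LTB, LTBR, FAS, FASLG, CD40, CD27, CD70 and NGFR. This gave 43 of 19222 protein-coding autosomal genes, among them the readthrough gene TNFSF12-TNFSF13. EDA2R lies on the X chromosome and was left out. Cells received MVs of *V. cholerae* C6706 or MVs of *E. coli* MC1061, both for 5 h, or were mock-treated, with mock labelled as non treated. For each treatment H3K4me3, the histone mark of active promoters, was mapped by ChIP sequencing and nucleosome-free DNA by FAIRE sequencing. The sample labels do not say whether both assays used the same culture. There was 1 library per treatment and assay, 6 in all, and all came from 1 cell line. No difference therefore has a replicate check, no test between treatments was made, and every interval below covers counting error only.

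Ligands of this superfamily are mostly trimeric membrane proteins of immune cells, some of which are shed, and each binds 1 or more receptors with cysteine-rich outer domains. Several receptors with a death domain recruit TRADD or FADD and can activate caspases. Many of the other receptors bind TRAF adaptors and activate NF-kB. In the gut, TNF, the lymphotoxins, TNFSF15 and FAS ligand are known for their part in inflammation, lymphoid tissue and the death of epithelial cells.

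For each gene, normalized tag counts of every called peak within 1000 bp of any start site were added up, in tags per 10000000 tags of the library. A ratio between libraries was compared with the median ratio of all genes with a peak in both libraries. It was called higher or lower when it differed at least 1.5-fold from that median and its exact 95% interval excluded the median. Shares of all genes called are over these same genes. The H3K4me3 libraries held 13011839 tags for *V. cholerae* MVs, 10528314 for *E. coli* MVs and 3463875 for mock, with 56.1%, 53.9% and 38.6% of these tags in peaks. The FAIRE libraries held 12077180, 7888670 and 14474665 tags in the same order. The FAIRE library of *E. coli* MVs stood apart, with 37.3% of its tags in peaks, against 13.9% with *V. cholerae* MVs and 7.12% in mock, and each FAIRE ratio that involves it is given on that basis. Of 12 markers of intestinal epithelium, 10, 11 and 10 had an H3K4me3 peak with *V. cholerae* MVs, *E. coli* MVs and mock, with summed levels of 7154, 6613 and 4117. Only 1 of 12 blood cell markers had a peak in each library (sums 167, 136 and 101), and of 7 markers of fibroblasts and endothelium 1, 1 and 0 had one (sums 14.6, 17.1 and 0).

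The start sites of the members differ widely in CpG content. The 300 bases before the main start sites of TNFRSF19 and FASLG are shown because both are poor in CG and only the one of TNFRSF19 was marked (hg19/GRCh37, read 5′ to 3′ on the strand of the gene, capitals mark CG dinucleotides). TNFRSF19 carries H3K4me3 in every library with only 6 CG, and FASLG, with 2, had no peak in any library.
TNFRSF19, chr13:24144251-24144550, plus strand: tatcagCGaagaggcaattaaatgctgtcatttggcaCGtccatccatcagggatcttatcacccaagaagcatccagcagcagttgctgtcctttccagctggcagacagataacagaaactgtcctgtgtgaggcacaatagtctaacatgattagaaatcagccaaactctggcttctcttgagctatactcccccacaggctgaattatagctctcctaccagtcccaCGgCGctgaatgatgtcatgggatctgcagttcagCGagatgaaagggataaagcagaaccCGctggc
FASLG, chr1:172627943-172628242, plus strand: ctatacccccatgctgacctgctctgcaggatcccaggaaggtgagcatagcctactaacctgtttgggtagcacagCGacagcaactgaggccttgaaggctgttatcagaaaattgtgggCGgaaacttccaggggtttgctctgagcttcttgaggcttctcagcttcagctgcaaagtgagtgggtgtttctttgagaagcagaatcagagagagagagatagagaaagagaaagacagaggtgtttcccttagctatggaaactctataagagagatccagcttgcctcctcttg

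A second group is shown for matches to the NF-kB consensus. These 3 genes were picked because each has both a match and an H3K4me3 difference described below. Only TNFRSF14 was called higher than mock, LTB was called between the MVs only, and TNFRSF9 had no peak in mock. TNFSF12, TNFSF13, TNFRSF18 and TNFRSF1A were also called higher than mock but have no match. Of the 12 members with a match, 5 had no H3K4me3 peak in any library. A link between match and mark was not tested. Capitals mark the matching bases, with overlapping matches joined. TNFRSF9 has its match 74 to 64 bases before the start site, TNFRSF14 has 1 run of overlapping matches 86 to 75 bases before it, and LTB has its match 87 to 78 bases before it.
TNFRSF9, chr1:8000900-8001199, minus strand: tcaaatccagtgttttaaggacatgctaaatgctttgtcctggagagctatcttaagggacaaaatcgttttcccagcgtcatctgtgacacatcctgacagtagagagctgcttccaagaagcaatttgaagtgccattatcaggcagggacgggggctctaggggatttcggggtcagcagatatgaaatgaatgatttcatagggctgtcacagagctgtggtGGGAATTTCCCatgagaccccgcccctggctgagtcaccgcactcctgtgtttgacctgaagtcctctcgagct
TNFRSF14, chr1:2487510-2487809, plus strand: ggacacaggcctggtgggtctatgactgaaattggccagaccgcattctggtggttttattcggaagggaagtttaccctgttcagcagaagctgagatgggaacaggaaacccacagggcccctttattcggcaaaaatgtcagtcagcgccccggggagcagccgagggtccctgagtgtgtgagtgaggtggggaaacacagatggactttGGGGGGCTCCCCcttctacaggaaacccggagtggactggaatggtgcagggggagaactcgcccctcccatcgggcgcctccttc
LTB, chr6:31550202-31550501, minus strand: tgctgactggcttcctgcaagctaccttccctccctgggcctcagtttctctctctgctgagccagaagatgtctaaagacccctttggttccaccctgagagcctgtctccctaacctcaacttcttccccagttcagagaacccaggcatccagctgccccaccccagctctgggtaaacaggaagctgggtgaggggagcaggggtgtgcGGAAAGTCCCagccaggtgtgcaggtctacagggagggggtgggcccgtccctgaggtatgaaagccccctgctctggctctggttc

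A smaller share of TNF superfamily genes than of all genes had a called H3K4me3 peak, and more of them had one with either MV than in mock. The mock library had the fewest tags (3463875). At its depth the MV peaks of TNFSF13B, TNFSF10 and CD70 lie below or close to the limit of calling, as described below. A peak was found at 24 of 43 members with *V. cholerae* MVs, 23 with *E. coli* MVs and 18 in mock. Over all 19222 genes the shares were 66.1%, 65.2% and 61.3%. A peak was called in all 3 libraries at 18 members (60.9% of all genes) and in none at 19 (33% of all genes). A further 5 members had a peak with both MVs and none in mock, a pattern seen at 3.5% of all genes, and 1 member had a peak with *V. cholerae* MVs only, against 1.56% of all genes. No member had a peak only with *E. coli* MVs or only in mock, patterns seen at 0.655% and 0.14% of all genes. Mock with *V. cholerae* MVs alone (0.125% of all genes) and mock with *E. coli* MVs alone (0.0884%) also occurred at 0 members. The marked members were mainly receptors. Of the 7 death domain receptors 5 had a peak in every library, and of the 7 TRAF-binding receptors found in many tissues 5 had one in every library. By contrast only 1 of 8 receptors of lymphocytes and 5 of 16 ligands did.

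**Figure D1:**
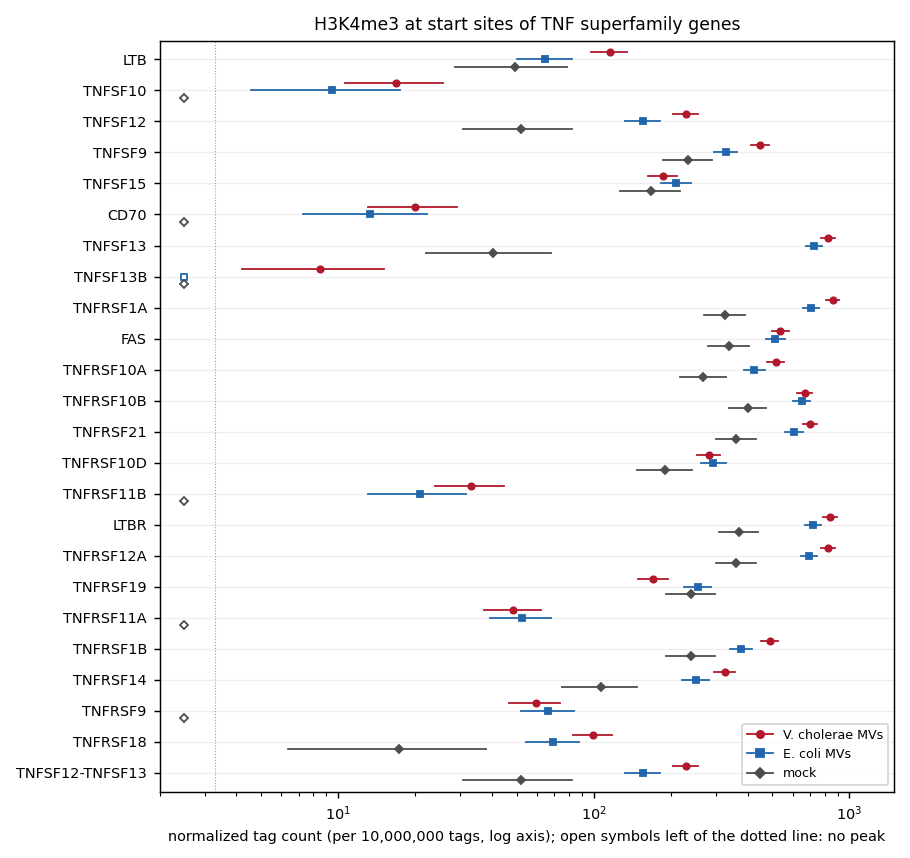
H3K4me3 at the start sites of the 24 members with a peak in at least 1 library, as normalized tag count per 10000000 tags on a log axis, with exact 95% Poisson intervals for counting error. Points are single libraries (*V. cholerae* MVs, *E. coli* MVs, mock, top to bottom in each row) and open symbols mark no peak. Receptors such as TNFRSF1A, LTBR and TNFRSF12A lie between 694 and 859 with either MV and between 326 and 370 in mock, and 6 genes have an open symbol for mock.

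Among ligands, TNF and LTA, the founding cytokines of the family, had no H3K4me3 peak in any library, and neither had TNFSF14, FASLG, TNFSF4, TNFSF8, TNFSF18 or TNFSF11. LTB, which anchors lymphotoxin alpha at the cell surface, was the marked gene of the LTA, TNF and LTB cluster on chromosome 6. Its normalized tag count was 115 with *V. cholerae* MVs, 64.6 with *E. coli* MVs and 49.1 in mock (150, 68 and 17 tags). Its peaks lay 196 to 696 bp inside the gene from the main start site and none was shared with LTA or TNF. The log2 ratio of *V. cholerae* MVs to *E. coli* MVs was 0.84 (95% interval 0.41 to 1.27), which was called higher. Per 1000 bp of called peak that difference was 0.03 relative to all genes and not called, as the peak was 1681 bp wide with *V. cholerae* MVs and 1030 bp with *E. coli* MVs.

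TNFSF12, which encodes the ligand TWEAK, had more H3K4me3 with either MV than in mock. Its values were 229 with *V. cholerae* MVs, 156 with *E. coli* MVs and 52.0 in mock, from 298, 164 and 18 tags. The log2 ratios to mock were 2.14 (1.45 to 2.91) with *V. cholerae* MVs and 1.58 (0.88 to 2.37) with *E. coli* MVs, against medians of 0.63 and 0.52 over all genes. Both were called higher. The readthrough gene TNFSF12-TNFSF13 starts at the same peaks and repeats these values, so it is no separate observation. Per 1000 bp of peak the *E. coli* MV ratio of TNFSF12 was 0.70 relative to all genes and was no longer called.

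TNFSF13, which encodes the B cell survival ligand APRIL, gave the highest ratio of any member, and this ratio rested on how peaks were joined. Its values were 826 with *V. cholerae* MVs, 727 with *E. coli* MVs and 40.4 in mock, and the log2 ratios to mock were 4.35 (3.60 to 5.23) and 4.17 (3.41 to 5.05). In the MV libraries 1 peak of 6220 or 6108 bp ran from TNFSF13 across the main start site of SENP3. A start site of the readthrough gene SENP3-EIF4A1 also lay within 1000 bp of that peak. Mock instead had a peak of 797 bp at TNFSF13 and a separate one of 2433 bp with 349 normalized tags at SENP3. With regions joined over the 3 libraries, mock had 390 normalized tags and the ratios relative to all genes were 0.46 with *V. cholerae* MVs and 0.39 with *E. coli* MVs, which were not called.

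**Figure D2:**
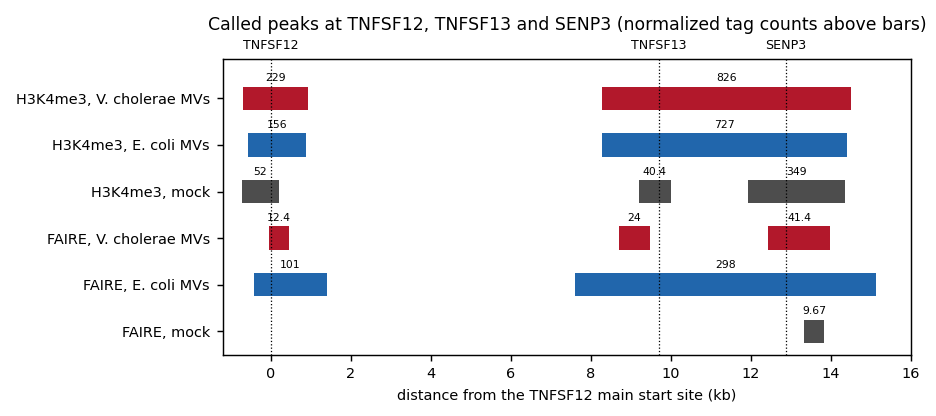
Called peaks from TNFSF12 to SENP3 on chromosome 17, drawn as distance from the main start site of TNFSF12 in kb, with 1 row per library and the normalized tag count above each bar. The single wide H3K4me3 bar of 826 (*V. cholerae* MVs) or 727 (*E. coli* MVs) corresponds in mock to 2 bars of 40.4 and 349, and FAIRE shows a wide bar of 298 with *E. coli* MVs only.

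The costimulatory ligands TNFSF9, the ligand of the T cell receptor TNFRSF9, and TNFSF15, a gut mucosal cytokine also called TL1A, were marked in every library. TNFSF9 had 448 with *V. cholerae* MVs, 328 with *E. coli* MVs and 234 in mock. TNFSF15 had 186, 210 and 167. Neither was called in any comparison, and the intervals of TNFSF15 against mock, −0.27 to 0.59 with *V. cholerae* MVs and −0.10 to 0.77 with *E. coli* MVs on the log2 scale, both included no change.

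CD70, the ligand of CD27, TNFSF10, the death ligand TRAIL, and TNFSF13B, the B cell ligand BAFF, had weak peaks in MV libraries and none in mock. CD70 had 20.0 with *V. cholerae* MVs and 13.3 with *E. coli* MVs, at an upstream start site more than 12 kb from the main one (12531 and 12373 bp). TNFSF10 had 16.9 and 9.50. TNFSF13B had 8.45 with *V. cholerae* MVs only, 34409 bp from its main start site. These values correspond to 6.92 and 4.61 tags for CD70, 5.86 and 3.29 for TNFSF10 and 2.93 for TNFSF13B at the depth of the mock library, whose weakest peak held 4 tags and whose header gives a threshold of 6 tags. An absence from mock was thus not detectable at this depth for TNFSF13B, for TNFSF10 with either MV and for CD70 with *E. coli* MVs, and CD70 with *V. cholerae* MVs was close to the limit.

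Receptors with a death domain carried some of the strongest H3K4me3 signals. TNFRSF1A, the main TNF receptor of epithelial cells, had 859 with *V. cholerae* MVs, 707 with *E. coli* MVs and 326 in mock, and its log2 ratios to mock of 1.40 (1.12 to 1.69) and 1.12 (0.83 to 1.41) were called higher. Over the main start site alone the values were 646, 522 and 326, and the ratios relative to all genes were 0.39 and 0.19, neither called. The MV sums include a peak inside the gene, and the mock library has 136 normalized tags in a peak of the same stretch that lies outside the 1000 bp windows. With regions joined over the libraries mock had 462 and the ratios relative to all genes were 0.27 and 0.10.

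FAS, the receptor of FAS ligand, had 537 with *V. cholerae* MVs, 514 with *E. coli* MVs and 338 in mock. Its peak also lies within 1000 bp of a start site of ACTA2. TNFRSF21, also called DR6, had 701, 607 and 361. The TRAIL receptors TNFRSF10A and TNFRSF10B had 516, 425 and 268, and 669, 650 and 401. Their log2 ratios to mock ran between 0.61 and 0.96, close to the medians of all genes, and none of these 4 was called. Per 1000 bp of called peak TNFRSF21 had the highest H3K4me3 level of any member with *V. cholerae* MVs (255) and TNFRSF10B with *E. coli* MVs (213) and in mock (166), with FAS at 218, 200 and 154 in the 3 libraries. The other death domain receptors, TNFRSF25 and NGFR, had no H3K4me3 peak.

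The decoy receptors bind ligands without signalling. TNFRSF10D, a TRAIL decoy, had 282 with *V. cholerae* MVs, 293 with *E. coli* MVs and 191 in mock and was not called. TNFRSF11B, the osteoprotegerin gene, had 33.0 and 20.9 with the MVs and no peak in mock. TNFRSF10C and TNFRSF6B, a decoy for FAS ligand, had no H3K4me3 peak.

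Of the TRAF-binding receptors found in many tissues, TNFRSF14 was the one called higher than mock. TNFRSF14, also called HVEM, binds TNFSF14 and lymphotoxin alpha, and its peak covers its main start site at position 2487810 of chromosome 1. Its values were 326 with *V. cholerae* MVs, 251 with *E. coli* MVs and 107 in mock (424, 264 and 37 tags). The log2 ratios to mock were 1.61 (1.12 to 2.14) and 1.23 (0.73 to 1.77), 0.98 and 0.71 above the medians of all genes, and both were called higher. Against genes of the same class of GC content (1 of 10 classes) they were 0.56 and 0.49 and not called, and per 1000 bp of peak 0.43 and 0.02.

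TNFRSF12A, the TWEAK receptor Fn14, had 826 with *V. cholerae* MVs, 694 with *E. coli* MVs and 361 in mock. Its peak of more than 4 kb also lies within 1000 bp of start sites of CLDN6, HCFC1R1 and THOC6. LTBR, the lymphotoxin beta receptor, had 841, 720 and 370, of which 622, 497 and 268 lay over its main start site and part of the rest is shared with SCNN1A. TNFRSF1B, the second TNF receptor, had 488, 377 and 240. The log2 ratios of *V. cholerae* MVs to mock were 1.19, 1.19 and 1.03 for these 3 genes, within 1.5-fold of the median gene, and none was called against mock with either MV. For TNFRSF12A and LTBR this depended on the processing. With *V. cholerae* MVs both were called higher when libraries were scaled to the tags in peaks (0.65 and 0.64 relative to all genes) and over the main start site alone (0.60 and 0.62). TNFRSF12A was also called per 1000 bp of peak (0.77), and LTBR with the 500 bp window (0.85) and with peaks of at least 8-fold over input (0.69). With *E. coli* MVs LTBR was called with the 500 bp window (0.74).

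TNFRSF19, also called TROY, is a receptor without a known TNF ligand and a target of Wnt signalling. It was the only member called lower in H3K4me3. It had 171 with *V. cholerae* MVs, 255 with *E. coli* MVs and 240 in mock, from 222, 268 and 83 tags in peaks of 3039 to 3159 bp. With *V. cholerae* MVs the log2 ratio was −0.49 (−0.86 to −0.11) to mock and −0.58 (−0.84 to −0.32) to *E. coli* MVs, and both were called lower. They were also called lower in every alternative setting that gave a value but 1, since both ratios are under 1.5-fold when set against 0 and not against the median gene. The ratio of *E. coli* MVs to mock was 0.09 (−0.27 to 0.46). TNFRSF11A, the osteoclast receptor RANK, had 48.4 and 52.2 with *V. cholerae* and *E. coli* MVs and no peak in mock, and CD40 had none in any library.

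Of the receptors of lymphocytes, TNFRSF18, the T cell receptor GITR, had 99.1 with *V. cholerae* MVs, 69.3 with *E. coli* MVs and 17.3 in mock (129, 73 and 6 tags). The log2 ratios to mock were 2.52 (1.36 to 3.99) and 2.001 (0.81 to 3.49) and were called higher, but the 6 tags of mock leave wide intervals. Against genes of the same class of GC content the *E. coli* MV ratio was 1.12, in place of 1.48 relative to all genes, and not called, and per 1000 bp of peak the ratios were 0.61 with *V. cholerae* MVs and 0.41 with *E. coli* MVs, neither called. TNFRSF9, the costimulatory receptor 4-1BB, had 59.2 and 66.5 with the MVs, in peaks over its main start site, and no peak in mock. TNFRSF4, TNFRSF8, TNFRSF13B, TNFRSF13C, TNFRSF17 and CD27 had no H3K4me3 peak.

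For the receptors marked only after MV treatment more tags are expected at the depth of the mock library. At that depth the MV values correspond to 20.5 and 23.0 tags for TNFRSF9 (*V. cholerae* and *E. coli* MVs), 16.8 and 18.1 for TNFRSF11A and 11.4 and 7.24 for TNFRSF11B, against a weakest mock peak of 4 tags and a threshold of 6 tags in the header of the mock list. This scaling counts total tags only, and the median log2 ratios to mock over all genes were 0.63 and 0.52. At those ratios TNFRSF11B would fall under 6 tags with *E. coli* MVs and lie near that threshold with *V. cholerae* MVs. A signal in mock below the caller's criteria cannot be seen in a list of peaks. These are thus absences of a called peak and not of the mark.

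Across the 18 members with a peak in both libraries, the median log2 ratio was 1.11 for *V. cholerae* MVs to mock, against 0.63 over 11734 genes, and 0.72 for *E. coli* MVs to mock, against 0.52 over 11727 genes. With *V. cholerae* MVs 6 of 18 members were called higher, against 17.2% of all genes, and 1 lower, against 10.2%. With *E. coli* MVs 6 of 18 were called higher, against 9.94% of all genes, and 0 lower, against 1.62%. Both comparisons use the same mock library, and both counts hold TNFSF12 and its readthrough gene at the same peaks. With regions joined over the 3 libraries 4 members were called higher with each MV, again with TNFSF12 and its readthrough gene among them. The share of all genes called was not worked out for this count or for the calls by class of GC content below. Counted without reference to the median gene, 15 of 18 members were at least 1.5-fold above mock beyond counting error with *V. cholerae* MVs, against 52.7% of all genes, and 14 of 18 with *E. coli* MVs, against 41.6%. The medians of all genes moved with GC content, from 0.30 in the lowest to 1.09 in the highest of 4 classes of equal size for *V. cholerae* MVs to mock, and 8 of the 18 members lay in each of the upper 2 classes, where the members' medians were 0.95 and 1.40. Relative to the median of the same class of GC content (1 of 10) 5 members were called higher with *V. cholerae* MVs and 4 with *E. coli* MVs, and the members' median was 0.16 and 0.13, in place of 0.47 and 0.21 relative to all genes.

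**Figure D3:**
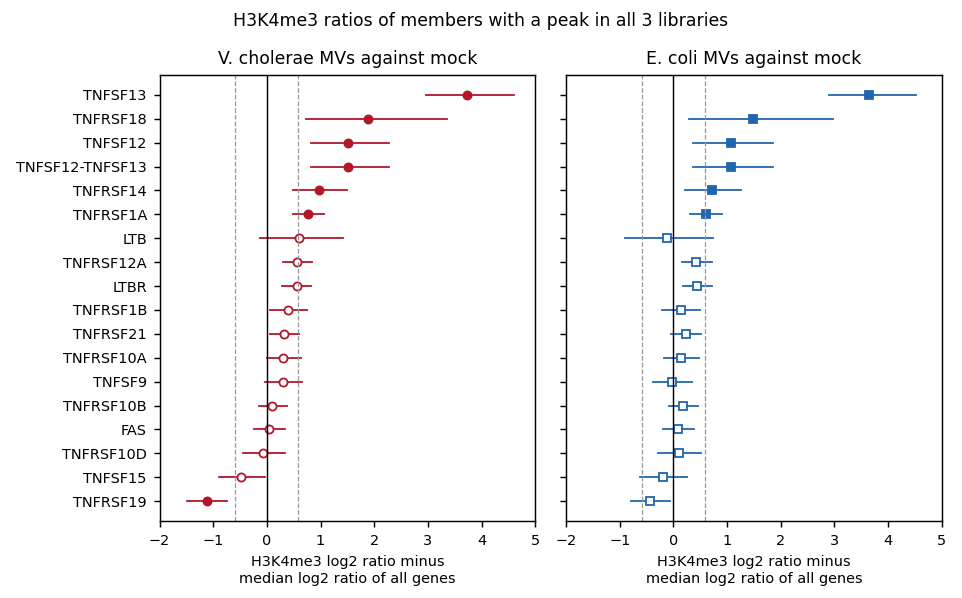
H3K4me3 log2 ratios to mock of the 18 members with a peak in every library, minus the median of all genes, with exact 95% intervals for counting error. Filled symbols are called, dashed lines mark 1.5-fold. TNFSF13 stands at the top with 3.72 (*V. cholerae* MVs) and 3.65 (*E. coli* MVs), and TNFRSF19 at the bottom with −1.12 and −0.43.

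Between the 2 kinds of MVs only LTB and TNFRSF19 among the members were called in H3K4me3. Of 23 members with a peak in both libraries 1 was called higher with *V. cholerae* MVs (LTB, background 3.42% of all genes) and 1 lower (TNFRSF19, background 0.969%). The median log2 ratio of the members was 0.28, against 0.12 over 12382 genes, and without reference to the median gene 1 of 23 members was at least 1.5-fold higher with *V. cholerae* MVs, against 5.68% of all genes.

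The adaptors and proximal regulators downstream of the receptors were marked throughout. All 20 listed genes had an H3K4me3 peak in every library. With either MV 3 of 20 were called higher, against 17.2% of all genes for *V. cholerae* MVs and 9.94% for *E. coli* MVs, and 0 lower. The median log2 ratio was 0.88 with *V. cholerae* MVs, against 0.63 over all genes, and 0.65 with *E. coli* MVs, against 0.52. TRAF1, an adaptor that is itself an NF-kB target, had 187 with *V. cholerae* MVs, 148 with *E. coli* MVs and 34.6 in mock, with log2 ratios to mock of 2.43 (1.60 to 3.40) and 2.10 (1.25 to 3.08). TNFAIP3, the A20 inhibitor of NF-kB signalling, had 469, 334 and 107, with ratios of 2.13 (1.65 to 2.65) and 1.65 (1.16 to 2.18). CASP10, a death receptor caspase, had the lowest ratios, with 49.2, 56.0 and 49.1. In FAIRE with *V. cholerae* MVs, 6 of the 13 listed genes with a peak in both libraries were called higher and 2 lower. Over all genes the shares were 23.9% and 22.9%. With *E. coli* MVs 6 of 14 were called higher and 3 lower, against 26% and 26.1%. TRAF1 was called lower in FAIRE with *V. cholerae* MVs, at 14.1 against 29.7 in mock, a log2 ratio of −1.08 (−1.98 to −0.24).

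Of the members with an H3K4me3 peak, 18 of 24 with *V. cholerae* MVs also had a FAIRE peak. With *E. coli* MVs it was 21 of 23 and in mock 4 of 18. Over all genes the counts were 10717 of 12705, 12196 of 12525 and 6413 of 11778. A FAIRE peak was found at 25 of 43 members with *V. cholerae* MVs, 34 with *E. coli* MVs and 10 in mock, against 63.8%, 79.3% and 43.2% of all genes. The pattern of both MVs without mock was seen at 17 members (25.7% of all genes), *E. coli* MVs only at 9 (12.4%), all 3 libraries at 7 (35.8%) and none at 7 (17.1%). The members with no FAIRE peak were FASLG, TNFSF10, TNFSF4, TNFSF8, TNFSF18, TNFRSF17 and CD27. All of these but TNFSF10 also lacked H3K4me3. TNFSF15 had a FAIRE peak in mock only (10.4), which was the case for 1.36% of all genes. TNFSF13B had one with *V. cholerae* MVs and in mock (1 member, 0.687% of all genes) and NGFR with *E. coli* MVs and in mock (1 member, 5.33%), and 0 members had one with *V. cholerae* MVs only (1.53%). The mock FAIRE library was the deepest of the 3, and every member peak of the MV libraries that was missing in mock corresponds to at least 12.0 tags at its depth, where the weakest peak held 9 and the header gives a threshold of 12. The lowest were TNFRSF13B (11.99) and TNFRSF6B (13.2), both with *V. cholerae* MVs and at this limit. This counts depth alone. The median log2 ratio to mock over all genes was 1.38 with *V. cholerae* MVs and 3.07 with *E. coli* MVs. At those ratios further members would fall under the threshold. A missing FAIRE peak in mock is thus an absence of a call and not of nucleosome-free DNA.

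**Figure D4:**
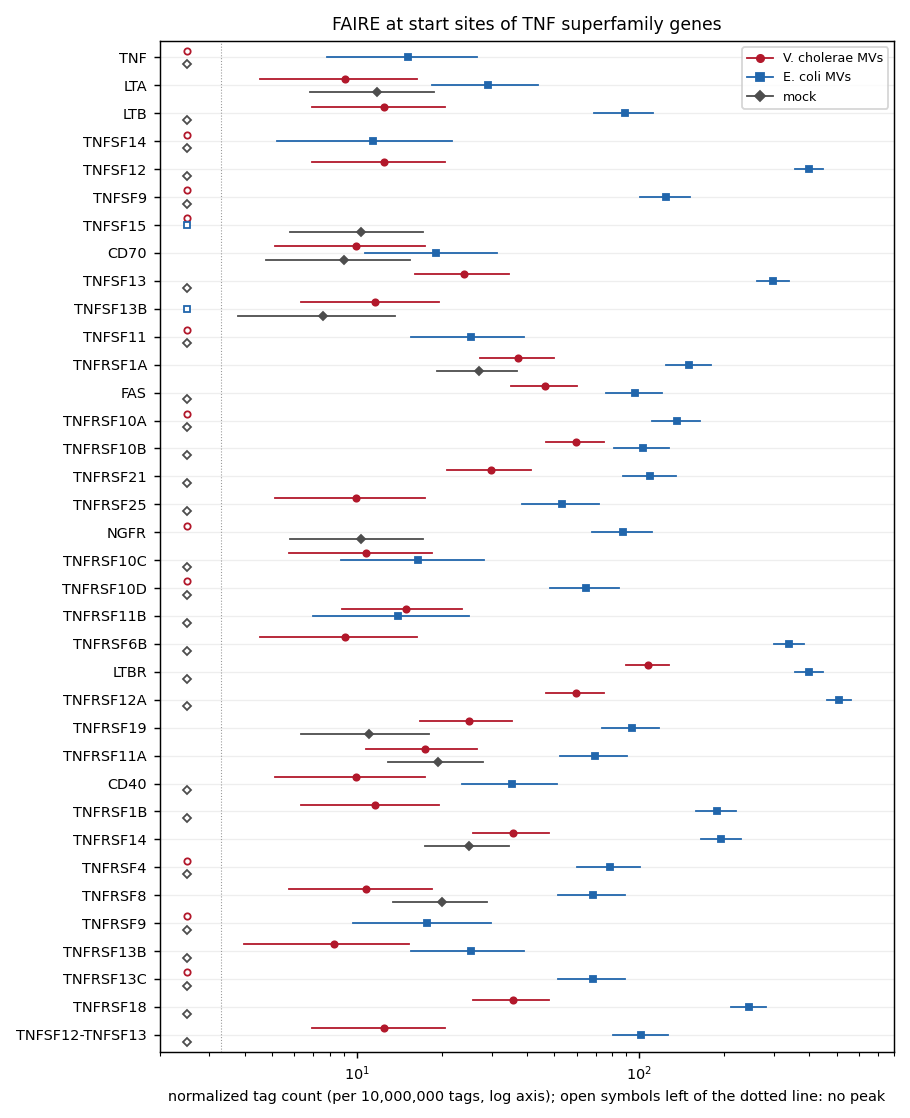
FAIRE at the start sites of the 36 members with a peak in at least 1 library, as normalized tag count per 10000000 tags on a log axis, with exact 95% Poisson intervals for counting error. Points are single libraries and open symbols mark no peak. The *E. coli* MV points, up to 510 at TNFRSF12A (in peaks shared with neighbours), lie right of the others at most genes. That library has 37.3% of its tags in peaks.

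FAIRE levels of the ligands were low outside the *E. coli* MV library. TNF had a peak of 15.2 with *E. coli* MVs only, over its start site. LTA had 9.11 with *V. cholerae* MVs, 29.2 with *E. coli* MVs and 11.7 in mock, and LTB had 12.4 and 88.7 with the MVs and none in mock. The 3 neighbours had separate peaks, none shared. TNFSF12 had 12.4 with *V. cholerae* MVs and 399 with *E. coli* MVs, of which 298 belong to a peak of 7506 bp that it shares with TNFSF13 and SENP3, and it had no peak in mock. TNFSF13 had 24.01 and 298 with the MVs, and CD70 had 9.94 with *V. cholerae* MVs, 19.0 with *E. coli* MVs and 8.98 in mock. TNFSF9 (124), TNFSF11 (25.4) and TNFSF14 (11.4) had a peak with *E. coli* MVs only, and TNFSF13B had 11.6 with *V. cholerae* MVs and 7.60 in mock.

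Among the receptors TNFRSF12A had 59.6 with *V. cholerae* MVs and 510 with *E. coli* MVs, and LTBR had 108 and 399. Neither had a FAIRE peak in mock. Of the 510, 477 lay in a peak of 4457 bp that is also within 1000 bp of start sites of CLDN6, HCFC1R1 and THOC6. No *V. cholerae* MV peak covered the main start site of TNFRSF12A. For LTBR 72.0 and 175 lay over its main start site, and part of the rest is shared with SCNN1A. TNFRSF6B had 9.11 and 340, the second in a peak of 10601 bp that also lies within 1000 bp of a start site of ARFRP1. TNFRSF14 had 35.6 and 195 with the MVs and 24.9 in mock, and TNFRSF1A had 37.3, 150 and 26.9. TNFRSF11B was close to level between the MVs, with 14.9 for *V. cholerae* MVs and 13.9 for *E. coli* MVs.

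Of the other receptors with a death domain, FAS had FAIRE values of 46.4 with *V. cholerae* MVs and 96.3 with *E. coli* MVs, TNFRSF10B had 59.6 and 103, and TNFRSF21 had 29.8 and 109. TNFRSF25, also called DR3, had 9.94 and 53.2, the second from 2 separate peaks. The peak of 30.4 among them also lies within 1000 bp of a start site of PLEKHG5. FAS, TNFRSF10B, TNFRSF21 and TNFRSF25 had no FAIRE peak in mock. TNFRSF10A had 136 with *E. coli* MVs only, and NGFR had 87.5 with *E. coli* MVs and 10.4 in mock. Of the decoy receptors TNFRSF10C had 10.8 and 16.5 with the MVs and TNFRSF10D had 64.6 with *E. coli* MVs only.

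Of the TRAF-binding receptors, TNFRSF19 had 24.8 with *V. cholerae* MVs, 93.8 with *E. coli* MVs and 11.1 in mock, and TNFRSF11A had 17.4, 69.7 and 19.3. TNFRSF1B had 11.6 and 188 with the MVs, CD40 had 9.94 and 35.5, and neither had a peak in mock. Among the lymphocyte receptors TNFRSF18 had 35.6 and 245 with the MVs and TNFRSF13B 8.28 and 25.4. TNFRSF4 (78.6), TNFRSF13C (68.5) and TNFRSF9 (17.7) had a peak with *E. coli* MVs only, and TNFRSF8 was the one receptor of lymphocytes with a peak in mock, at 10.8, 68.5 and 20.0 in the 3 libraries.

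Ratios of FAIRE to mock could be formed at 8 members for each MV, and their median lay below that of all genes. With *V. cholerae* MVs 0 of 8 members were called higher and 5 lower, where 23.9% of all genes were called higher and 22.9% lower. The median log2 ratio was 0.31, against 1.38 over 7013 genes. With *E. coli* MVs, for 8 members, the counts were again 0 and 5, against 26% and 26.1% of all genes, and the median was 2.16, against 3.07 over 7906 genes. LTA, TNFRSF11A, TNFRSF1A and TNFRSF8, the last being CD30, were called lower in both comparisons, which share the mock library. These values rest on 11 to 118 tags per library. Counted without reference to the median gene, 1 of 8 members was at least 1.5-fold above mock with *V. cholerae* MVs, against 70.4% of all genes, and 7 of 8 with *E. coli* MVs, against 94.8%. With *V. cholerae* MVs no peak of TNFRSF8, TNFRSF19 or TNFSF13B overlaps a mock peak of the same gene, and with *E. coli* MVs none of TNFRSF1A does, so these ratios set different stretches of a gene against each other. The TNFSF13B peaks lay 303 bp (*V. cholerae* MVs) and 34280 bp (mock) from the main start site. With windows of 2500 bp 12 members for *V. cholerae* MVs and 15 for *E. coli* MVs had a peak in both, with 2 called higher and 4 lower and 2 called higher and 6 lower. The share of all genes called with that window was not worked out. Per 1000 bp of peak no member was called against mock.

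For *V. cholerae* MVs against *E. coli* MVs, 24 members had a FAIRE peak in both, with a median log2 ratio of −2.004, against −1.60 over 11830 genes. At 3 of them, TNFRSF10C, TNFRSF13B and TNFRSF25, no peak of 1 library overlaps a peak of the other. Their ratios, none of which was called, set different stretches of a gene against each other. Of the 24 members 2 were called higher (TNFRSF10B and TNFRSF11B, background 17.5% of all genes) and 10 lower (background 22.7%), the lowest being TNFRSF6B at −5.22 (−6.24 to −4.36) and TNFSF12 at −5.01 (−5.86 to −4.26). The TNFRSF10B sum with *V. cholerae* MVs includes a peak of 14.9 that lies 38926 bp from the main start site. Over the main start site alone TNFRSF10B had 44.7 with *V. cholerae* MVs and 103 with *E. coli* MVs. The TNFRSF11B ratio rests on 18 and 11 tags. The TNFSF12 ratio rests on the wide *E. coli* MV peak at TNFSF13 and SENP3, and relative to all genes it was −3.41, against −0.78 with regions joined over the libraries and −1.55 over the main start site alone, all called lower. For TNFRSF6B the joined regions gave 25.7 with *V. cholerae* MVs and 340 with *E. coli* MVs, −2.14 relative to all genes in place of −3.62. TNFSF12, TNFSF12-TNFSF13 and TNFSF13 share peaks and are 3 of the 10. Peak width moved with this comparison. The median peak width of members was 625 bp with *V. cholerae* MVs and 2183 bp with *E. coli* MVs, and per 1000 bp of peak only 1 member was called, as higher. Without reference to the median gene 0 of 24 members were at least 1.5-fold higher with *V. cholerae* MVs, against 0.211% of all genes. The treatment with *E. coli* MVs and its library cannot be told apart, as there is only 1.

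H3K4me3 and FAIRE overlapped at a smaller share of the marked members than of marked genes in general. Of the members with an H3K4me3 peak an overlapping FAIRE peak was present at 14 of 24 with *V. cholerae* MVs (58.3%, against 78.0% of all genes), 19 of 23 with *E. coli* MVs (82.6%, against 96.0%) and 2 of 18 in mock (11.1%, against 36.5%). The 2 in mock were TNFRSF14 and TNFSF15. Conversely 13 of the 20 members without H3K4me3 had a FAIRE peak with *E. coli* MVs (65%, against 45.5% of all such genes), and these included TNF, LTA, CD40, NGFR and TNFRSF6B. With *V. cholerae* MVs it was 7 of 19 (36.8%, against 23.6%) and in mock 6 of 25 (24%, against 25.3%). At CD70 the assays pointed to different start sites, since the H3K4me3 peaks lay at the upstream start and the FAIRE peaks did not overlap them.

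The marked members had lower CpG content than marked genes in general. Within 500 bp of the main start site the median ratio of observed to expected CpG was 0.61 at the 18 members with H3K4me3 in every library, 0.41 at the 6 with it in 1 or 2 and 0.39 at the 19 with none. Over all genes the medians of these classes were 0.79, 0.63 and 0.32. TNFSF15 (0.13), TNFRSF19 (0.23), TNFSF13 (0.28) and TNFRSF1A (0.28) carried the mark in every library at CpG-poor start sites, while TNFRSF12A (0.88) was the richest. The start site of LTB (0.13) was also CpG-poor, but its H3K4me3 peaks lay 196 bp (*V. cholerae* MVs) to 696 bp (mock) from it. The mock peak was thus outside the 500 bp in which CpG was measured.

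**Figure D5:**
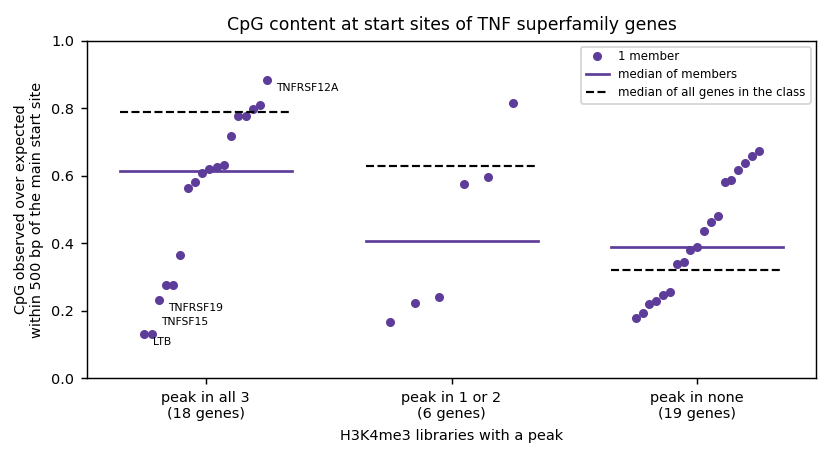
Ratio of observed to expected CpG within 500 bp of the main start site for each of the 43 members, grouped by the number of H3K4me3 libraries with a peak. Solid lines are the members' medians (0.61, 0.41 and 0.39) and dashed lines the medians of all genes in the class (0.79, 0.63 and 0.32).

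In the 300 bases before the main start site, read on both strands, a match to the NF-kB consensus was present at 12 of 43 members (27.9%) and at 13.2% of all 19222 genes. The 12 were CD40, CD70, FAS, LTA, LTB, TNFRSF12A, TNFRSF13C, TNFRSF14, TNFRSF9, TNFSF11, TNFSF14 and TNFSF15, of which 5 had H3K4me3 in all libraries, 2 in some and 5 in none. The AP-1 motif TGANTCA was found at 4 members (9.30%, against 5.72%), TATAAA at 10 (23.3%, against 11.2%) and the GC box GGGCGG at 26 (60.5%, against 60.7%). Among the members called higher against mock, TNFRSF14 has an NF-kB match, and TNFSF12, TNFSF13, TNFRSF18 and TNFRSF1A have none in this window. These are matches of letters only.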

How the data were processed

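Peak lists of 6 libraries (H3K4me3 ChIP sequencing and FAIRE sequencing with *V. cholerae* MVs, *E. coli* MVs or mock, 1 library each) were used. The 2 input libraries of the 8 samples were not analysed here. Samples were grouped by their labels. The build was hg19 and the authors' peaks are HOMER output. HOMER 4.7.2, SAMtools 1.3.1 and Bowtie 1.1.2 are named in the notes of the submitters, whereas the methods of the study name Bowtie 2 and both MACS and HOMER. Per the file headers the histone style was used with peaks at least 4-fold over input and local background, a p of 0.0001 under a Poisson model, and 1000 bp as the least distance between peaks. Each deposited list holds a normalized tag count made by the authors (a signal scaled to 10000000 tags), the tag count of each peak and of the input, the fold (ratio) over input and its p-value, and of these the normalized signal and the fold were used.

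Whole tags were recovered from the normalized signal and the total tags of the library, with rounding distances of at most 0.0721 tags. The deposited tag count column of the H3K4me3 lists of *V. cholerae* and *E. coli* MVs differs from the recovered tags by up to 4192 and 1739 tags per peak and was not used. Genes and start sites came from GENCODE 44 lifted to GRCh37, and sequences from that genome. The main start site was that of the MANE or canonical transcript. Ratios carry exact 95% binomial intervals and levels exact 95% Poisson intervals, which cover counting error only. The background for the presence of peaks was all 19222 protein-coding autosomal genes. For calls it was the genes with a peak in both libraries of the comparison. The calculation was tested on simulated data. Members, gene lists and alternatives were chosen with earlier results of these data known. Members with a peak may be named with values, members without one are named only, and protein-coding neighbours that share a peak are named without values. Alternatives were scaling to the tags in peaks, a call against 0, windows of 500 and 2500 bp, peaks of at least 8-fold over input, tags per 1000 bp, overlapping peaks only and GC content, and, chosen after seeing the data, regions joined over the 3 libraries and the peak over the main start site alone. Python 3.11.15, pandas 2.3.3, numpy 2.4.6, scipy 1.17.1 and matplotlib 3.10.9 were used.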

Additional observations from a re-analysis of the deposited data

Results flagged for a closer look

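At 4 places the log2 ratios to mock of the 2 kinds of MVs had opposite signs, but in each the interval of 1 of the 2 ratios included no change. The difference between the MVs was not tested, as there is 1 library per treatment. TNFRSF19 had an H3K4me3 log2 ratio to mock of −0.49 with *V. cholerae* MVs and 0.09 (−0.27 to 0.46) with *E. coli* MVs, and the ratio between the 2 was −0.58. Relative to the median gene it was below with both, at −1.12 and −0.43. In FAIRE, LTA had −0.37 (−1.61 to 0.81) and 1.31, with −1.68 between them, TNFRSF11A had −0.15 (−1.04 to 0.71) and 1.85, with −2.003 between them, and TNFRSF8 had −0.90 (−1.96 to 0.09) and 1.77, with −2.67 between them. No TNFRSF8 peak of *V. cholerae* MVs overlaps one of mock. The medians over all genes in FAIRE were 1.38 with *V. cholerae* MVs and 3.07 with *E. coli* MVs, so all of these FAIRE ratios lay below the median gene.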

How the results depend on the processing

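No paired analysis was possible because no treatment was repeated, and leaving out a library leaves no comparison. Depth limits the mock H3K4me3 library most, and members with under 6 expected tags there, the threshold in its header, cannot be judged as absent.

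Scaling to the tags in peaks moved the median log2 ratio of all genes by −0.54 (*V. cholerae* MVs to mock), −0.48 (*E. coli* MVs to mock) and −0.06 (*V. cholerae* to *E. coli* MVs) in H3K4me3 and by −0.97, −2.39 and 1.42 in FAIRE. Reported calls are relative to that median. With calls against 0, H3K4me3 gave 15 members (*V. cholerae* MVs to mock), 14 (*E. coli* MVs to mock) and 1 (between MVs), in place of 7, 6 and 2, and FAIRE gave 1 and, between MVs, 21, in place of 5 and 12. The medians were then 1.11 and 0.72 in H3K4me3 in place of 0.47 and 0.21, and 0.31, 2.16 and −2.004 in FAIRE in place of −1.07, −0.91 and −0.41. The cause of the other changes was not tested. For the settings below, the share of all genes called was not worked out.

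In H3K4me3, tags per 1000 bp gave 1 call for *E. coli* MVs to mock and 1 between MVs, and the peak over the main start site alone gave 1 call between MVs. In FAIRE to mock, scaling to tags in peaks gave 3 calls with *V. cholerae* MVs and 2 with *E. coli* MVs. Tags per 1000 bp and peaks of at least 8-fold over input gave 0 with either MV, the 8-fold filter leaving no member with a peak in both libraries. The main start site alone gave 1 (*V. cholerae* MVs) and 2 (*E. coli* MVs, median −2.12). For *V. cholerae* MVs the 500 bp window gave 3 and overlapping peaks 2. For *E. coli* MVs the 2500 bp window gave 8, with a median of 0.086. Between MVs in FAIRE, tags per 1000 bp gave 1 call and a median of 0.25, the 8-fold filter gave 0, and the main start site gave 5. Members with a FAIRE peak at 8-fold were 2, 12 and 0 (*V. cholerae* MVs, *E. coli* MVs, mock), in place of 25, 34 and 10. At the main start site alone they were 11 with *V. cholerae* MVs and 2 in mock, and with the 2500 bp window 16 in mock.

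Among single genes, log2 ratios relative to all genes changed sign as follows. TNFRSF1A in H3K4me3 per 1000 bp was −0.78 with *V. cholerae* MVs and −0.54 with *E. coli* MVs against mock. TNFRSF1A in FAIRE was 0.67 (2500 bp window) and 0.18 (joined regions) with *V. cholerae* MVs, and 0.082 (tags in peaks) and 0.24 (2500 bp window) with *E. coli* MVs. TNFRSF14 in FAIRE with *V. cholerae* MVs was 0.72 for overlapping peaks. Set against 0, FAIRE ratios to mock were 0.52 (TNFRSF14) and 0.47 (TNFRSF1A) with *V. cholerae* MVs, and 1.77 (TNFRSF8), 2.47 (TNFRSF1A), 1.85 (TNFRSF11A), 1.08 (CD70) and 1.31 (LTA) with *E. coli* MVs, and TNFRSF10B between MVs was −0.78. Between MVs in FAIRE per 1000 bp, TNFRSF18 was 0.052, TNFRSF14 0.22, TNFRSF8 0.43, TNFRSF1B 0.050, TNFSF12 0.028, TNFSF13 0.47, LTB 0.076 and TNFRSF10B −0.49. LTB in FAIRE between MVs was 0.78 with the 2500 bp window and 0.79 with joined regions.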
